A study of Arabidopsis thaliana with 6 samples.

Results

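The genes described here encode chloroplast pentatricopeptide repeat (PPR) proteins of Arabidopsis thaliana. They were chosen by annotation: the description of the gene in the deposited table had to hold both the family name and the word chloroplastic, and the regulators GUN1 (AT2G31400) and PTAC2 (AT1G74850) were left out by name. The rule gave 56 genes of the 19807 listed, and used no measured value. Without the exclusions by name the description alone gives 57. Messenger RNA was compared between prp8a-14 seedlings, mutated in the gene of the spliceosome protein PRP8A, and wild type seedlings, with 3 libraries in each group (replicates 4 to 6 of prp8a-14 and replicates 1 to 3 of wild type). Both groups are in the Col-0 ecotype and were 8 days old, grown in continuous light on plant nutrient medium, and whole seedlings were extracted. The labels name no second allele and no complemented line, and the sources used here do not give the nature of the prp8a-14 mutation. The submitters describe the 3 libraries of each group as biological replicates.

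PPR proteins are built from tandem repeats of a degenerate motif of about the same length, each of which contacts a base of RNA, so that an array of repeats reads a stretch of a transcript. Most are encoded in the nucleus and imported into plastids or mitochondria. There they edit C to U, help introns to be spliced, protect or cut the ends of transcripts, and promote translation. Loss of a single chloroplast member often removes the function of a single plastid gene, and such mutants are commonly pale, short of a photosynthetic complex, or arrested as embryos.

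Counts over the listed genes totalled 49126331 to 63069817 per library, and the first principal component, with 67.4% of the variance, separated the genotypes. Levels are given in CPM, the counts of a gene scaled to a common library size that the authors set. Every member had at least 45 counts in every library, so no member rests on a value near 0, and none was removed by a filter. A change is log2 of prp8a-14 over wild type, and a gene was called when its p, adjusted over all 19807 genes (limma with BH), was under 0.05. Of the 56 members 19 overlap another annotated gene, among them 9 of those called, and since the use of strand in counting is not stated, reads of such neighbours cannot be told apart. The labels say nothing on separate cultures or plates, so p-values measure the spread between these libraries.

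Part of the family carries a catalytic end. In these proteins the last residues form the DYW domain, named after its closing aspartate, tyrosine and tryptophan, which resembles cytidine deaminases and carries out editing. The domain pattern (H-x-E, then C-x-x-C-H after 20 to 40 residues, within the last 160) was found in 14 members, of which 7 close with the 3 residues themselves. The coding ends of the 3 pattern members that were called, CRR28, OTP86 and DOT4, are shown with those of CRR2 and RARE1, which were not called, because they show how the closing codons differ within the class. They are from RefSeq, TAIR10.1, 5′ to 3′, with the last 3 codons before the stop in capitals.
CRR28: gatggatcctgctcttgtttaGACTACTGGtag
OTP86: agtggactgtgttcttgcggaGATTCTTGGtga
DOT4: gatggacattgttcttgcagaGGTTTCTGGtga
CRR2: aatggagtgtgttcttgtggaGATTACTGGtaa
RARE1: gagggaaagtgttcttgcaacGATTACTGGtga
CRR28, CRR2 and RARE1 close with codons for the full motif, OTP86 with aspartate, serine and tryptophan, and DOT4 with glycine, phenylalanine and tryptophan. Other ends than the full motif also occur in pattern members that were not called and are not shown. OTP85, QED1 and ELI1 close with aspartate, phenylalanine and tryptophan. EMB3141 closes with glycine, tyrosine and tryptophan, and ECB2 with cysteine, glycine and aspartate.

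Chloroplast PPR transcripts were higher in prp8a-14, by small amounts. Of the 56 members 23 rose and 0 fell, or 41.1%, where 17.9% of all listed genes rose and 17.3% fell. The median log2 change over all members was 0.20, beside 0.0037 over all listed genes, and 51 members had a change above 0. The rises that were called ran from 10.8% (CRP1) to 42.8% (SOT5), and 0 members reached 1.5-fold. Without adjustment 30 members were above and 1 below wild type at p under 0.05, and the voom fit also gave 23 and 0. In the authors' deposited table, 24 members had an adjusted p under 0.05 and a positive change, and 0 a negative one.

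Against the mean of the wild type libraries, the median member stood at 0.21, 0.25 and 0.17 on the log2 scale in prp8a-14 replicates 4, 5 and 6, and at 0.06, -0.02 and -0.01 in wild type replicates 1, 2 and 3. The 3 prp8a-14 libraries all lay above the 3 wild type libraries. For 34 members every prp8a-14 library was above every wild type library, and for 0 every one was below, where such separation held for 24.3% and 23.7% of all listed genes. Summed over the members, the level was 1650.1, 1640.3 and 1584 CPM in prp8a-14, against 1404, 1332 and 1328 CPM in wild type, a ratio of 1.20. The same ratio over all listed genes was 1.07 with the authors' scaled sizes.

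**Figure D1:**
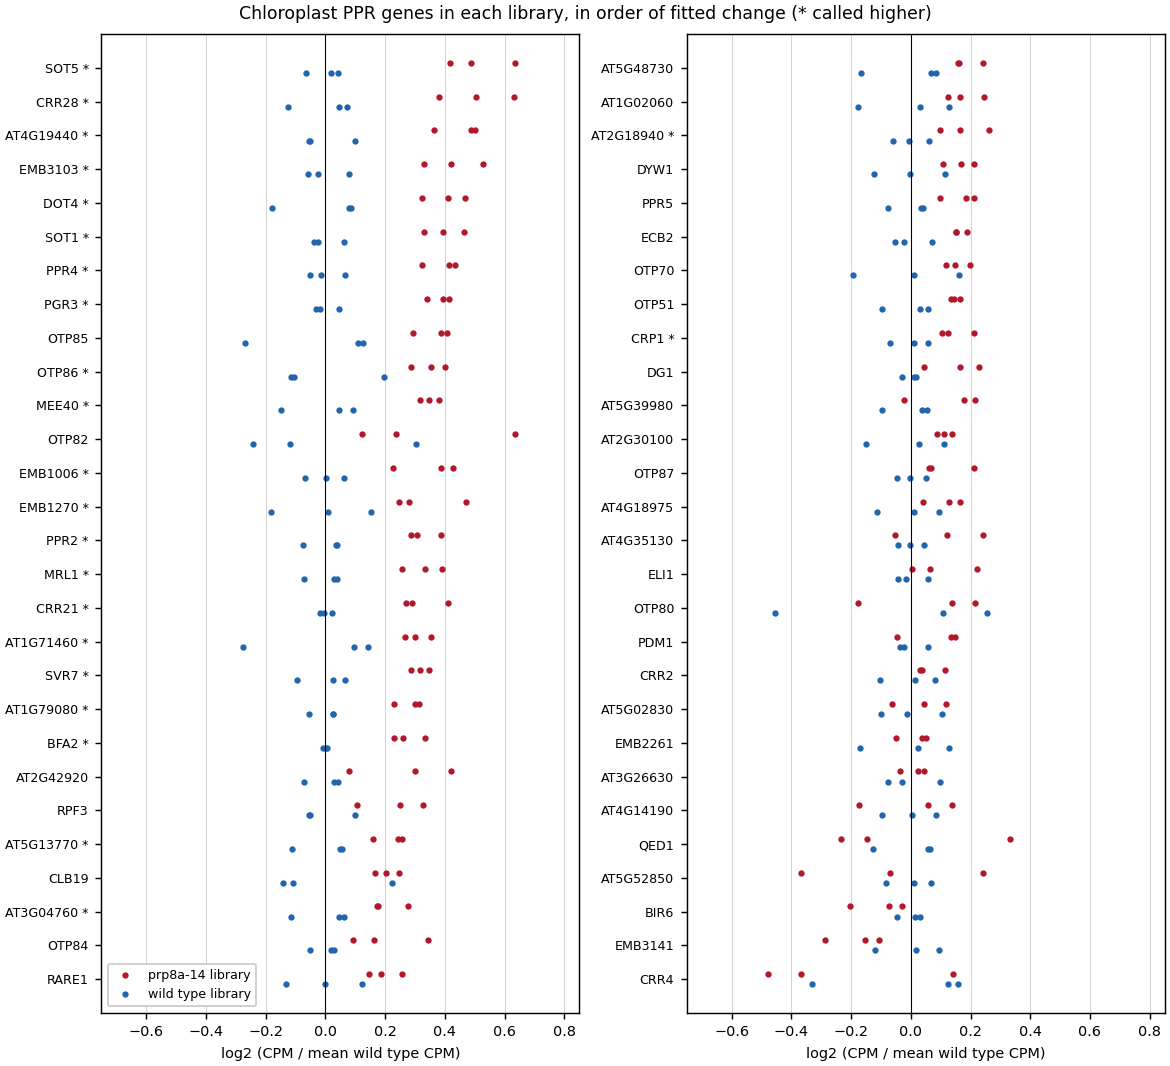
CPM of each of the 56 members in each library over the mean wild type CPM of that gene, on a log2 axis, with prp8a-14 libraries as red points above wild type libraries as blue points. Asterisks mark the 23 members called higher, and in all of them the red points lie to the right of every blue point.

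The scaling bears on these counts. With plain library totals instead, 15 members rose and 1 fell, where 10.7% of all listed genes rose and 29.6% fell; the median member changed by 0.10 and the median of all listed genes by -0.09. The member that fell was EMB3141 (AT5G50390), with 11.4, 12.5 and 12.9 CPM in prp8a-14, against 12.8, 14.1 and 14.9 CPM in wild type. Those groups overlap, and with the authors' sizes its change of -0.18 was not called (adjusted p = 0.11, limma with BH).

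Factors that stabilise, cut or help to translate plastid transcripts gave the highest share of calls among the 4 role lists. Of 8 members 7 rose and 0 fell, or 87.5%, with a median of 0.30. Of all listed genes 17.9% rose, and of those with a mean of at least 20 CPM 26.2%. The list also had the most reads of the 4, at a median of 56.8 CPM, beside 8.19 CPM for the editing factors. Whether its share follows from this level was not tested. SOT1 (AT5G46580), which takes part in the maturation of plastid ribosomal RNA, held 132, 125 and 119.8 CPM in prp8a-14, against 99.4, 93.6 and 92.8 CPM in wild type. The change was 0.40 (SE 0.05, limma with BH, adjusted p = 6e-05), and the lowest mutant library was above the highest wild type library. PGR3 (AT4G31850), which stabilises petL transcripts and acts in ndh expression, held 59.0, 58.2 and 56.0 CPM in prp8a-14 seedlings and 45.8, 43.4 and 43.8 CPM in wild type, a rise of 0.38. MRL1 (AT4G34830), required for stable rbcL mRNA, averaged 103 CPM ± 4.81 in prp8a-14 and 82.1 CPM ± 3.40 in wild type (SD, n = 3 each). Its groups were apart and its change was 0.33. SVR7 (AT4G16390), needed for the plastid ATP synthase, stood at 68.0, 70.8 and 69.4 CPM in the mutant, against 58.4, 52.2 and 56.7 CPM in wild type.

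BFA2 (AT4G30825), another ATP synthase factor, which acts on the atpF and atpA transcripts, averaged 33.7 CPM ± 1.25 in prp8a-14 and 27.8 CPM ± 0.123 in wild type (SD, n = 3 each). AT2G18940, the Arabidopsis relative of maize PPR10, and CRP1 (AT5G42310), whose maize counterpart acts in petA and psaC expression, had the smallest called rises, 0.17 and 0.15. Both lost their calls with library totals (changes of 0.08 and 0.05), with quantile normalization, in limma without trend and in the fit without organelle-encoded genes. The same held without wild type replicate 2 or 3 or prp8a-14 replicate 5, and for CRP1 also without prp8a-14 replicate 4. CRR2 (AT3G46790), which is involved in the cleavage between rps7 and ndhB, was the member of the list that was not called: 18.2, 18.3 and 19.3 CPM in prp8a-14, against 18.0, 18.9 and 16.6 CPM in wild type. Its groups overlap, and the 95% interval of its change ran from -0.08 to 0.21.

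Among the factors of plastid intron splicing and tRNA processing, 2 of 6 members rose and 0 fell, or 33.3%, with a median of 0.16. Of all listed genes 17.9% rose, and of those with a mean of at least 20 CPM 26.2%, where this list had a median of 25.8 CPM. SOT5 (AT1G30610, also EMB2279), which acts in splicing of plastid introns, had the largest rise of all members: 32.6, 38.0 and 34.3 CPM in prp8a-14, against 24.7, 23.4 and 25.2 CPM in wild type. The change was 0.51 (SE 0.06, limma with BH, adjusted p = 8.7e-05) and no library of one group entered the range of the other. PPR4 (AT5G04810), whose maize counterpart is needed for trans-splicing of rps12, had the smallest p of all members. It held 155, 157 and 145 CPM in prp8a-14, against 121, 115 and 112 CPM in wild type, a change of 0.39 (SE 0.05, limma with BH, adjusted p = 5.7e-05). The other members of the list were OTP51, for the second intron of ycf3, OTP70, for rpoC1, PPR5 (AT4G39620, also EMB2453), for a glycine tRNA, and PDM1. Their changes lay between 0.08 and 0.16 and did not pass. OTP51 was closest to the threshold (adjusted p = 0.051, limma with BH), with 32.9, 33.1 and 33.6 CPM in prp8a-14 and 31.2, 28.0 and 30.6 CPM in wild type.

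Of the 14 editing factors 3 rose and 0 fell, or 21.4%, where 17.9% of all listed genes rose. Of all listed genes with a mean under 20 CPM 10.3% rose. The editing factors had a median change of 0.20 and a median of 8.19 CPM, not corrected for length. CRR28 (AT1G59720), which is needed to edit several plastid transcripts and whose description names both organelles, held 5.32, 5.82 and 4.89 CPM in prp8a-14, against 3.88, 3.44 and 3.95 CPM in wild type. This is a change of 0.51, with an SE of 0.12, and the call held under every alternative that kept the gene. The filter at 5 CPM removes it, at a mean of 4.55 CPM. OTP86 (AT3G63370), for an rps14 site, stood at 10.5, 10.99 and 11.3 CPM in the mutant and 9.87, 7.95 and 8.00 CPM in wild type, and lost its call with library totals and without wild type replicate 2 or 3. CRR21 (AT5G55740), for an ndhD site, averaged 20.1 CPM ± 1.07 in prp8a-14 and 16.1 CPM ± 0.216 in wild type (SD, n = 3 each), a rise of 0.32.

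The other 11 editing factors did not pass. OTP85, for an ndhD site, had groups that were apart, with 4.65, 4.30 and 4.58 CPM in prp8a-14, against 2.91, 3.78 and 3.82 CPM in wild type (change 0.37, adjusted p = 0.056, limma with BH). OTP82, for sites in ndhB and ndhG, had a change of 0.35 with a 95% interval of -0.08 to 0.78. CLB19 (for rpoA and clpP sites), OTP84, RARE1 and ECB2 (both for accD), DYW1 and ELI1 had changes from 0.10 to 0.22, and OTP80, for an rpl23 site, had 0.09 with an interval of -0.46 to 0.64. The 2 factors below wild type were QED1 (-0.01) and CRR4 (-0.22), which edits the start codon of ndhD. CRR4 held 1.30, 1.21 and 1.86 CPM in prp8a-14 and 1.83, 1.34 and 1.88 CPM in wild type, and its interval of -0.72 to 0.29 covers changes in either direction. CRR4 and DYW1 act together at that start codon, and DYW1 stood at 13.7, 14.1 and 13.2 CPM in prp8a-14, against 13.2, 12.2 and 11.2 CPM in wild type. Editing itself was not measured.

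**Figure D2:**
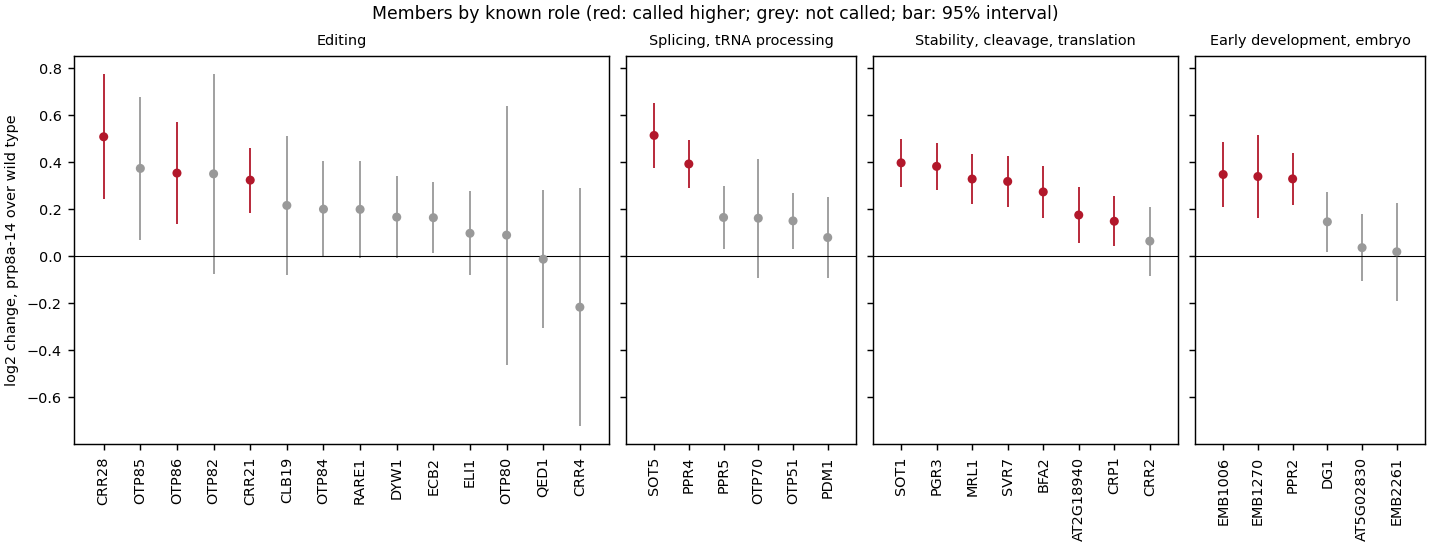
Fitted log2 change of prp8a-14 over wild type for the 34 members on the 4 role lists, with 95% intervals as bars, red for members called higher and grey for those not called. Stability, cleavage and translation factors have 7 of 8 called, and the widest intervals belong to the editing factors OTP80, CRR4 and OTP82.

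Factors known from mutants with delayed greening or arrested embryos had 3 of 6 members that rose and 0 that fell, with a median of 0.24. They had a median of 30.7 CPM, and of all listed genes with a mean of at least 20 CPM 26.2% rose. EMB1006 (AT5G50280) held 34.6, 33.7 and 30.1 CPM in prp8a-14, against 26.8, 25.8 and 24.5 CPM in wild type. EMB1270 (AT3G18110) rose by 0.34, although its wild type libraries spread from 38.9 to 49.0 CPM, and it lost its call in limma without trend. PPR2 (AT3G06430), which binds plastid 23S ribosomal RNA, averaged 54.8 CPM ± 2.02 in prp8a-14 and 43.6 CPM ± 1.94 in wild type (SD, n = 3 each), a rise of 0.33. DG1 (AT5G67570), named for delayed greening, had a change of 0.15 (adjusted p = 0.075, limma with BH) with 29.2, 30.6 and 26.9 CPM in the mutant, against 26.4, 25.6 and 26.3 CPM in wild type. AT5G02830 and EMB2261 (AT3G49170) had changes of 0.04 and 0.02 and overlapping groups.

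The remaining 22 members were on no role list, and 8 of them rose and 0 fell, or 36.4%, where 17.9% of all listed genes rose. AT4G19440 held 19.8, 21.6 and 21.8 CPM in prp8a-14, against 14.9, 14.8 and 16.5 CPM in wild type, a change of 0.45. EMB3103 (AT1G10910), named for an embryo defect, held 41.2, 44.4 and 38.7 CPM in the mutant and 30.3, 29.5 and 32.5 CPM in wild type, a change of 0.43. MEE40 (AT3G53700), also named for arrested embryos, rose by 0.35. In each of these the groups were apart, and the calls held under every alternative run. DOT4 (AT4G18750), known from mutants with altered leaf veins, rose by 0.41 at 5.99, 6.63 and 6.38 CPM in prp8a-14, against 5.07, 5.08 and 4.23 CPM in wild type. It lost its call with library totals and without wild type replicate 3 or prp8a-14 replicate 5. AT5G13770, AT3G04760, AT1G79080 and AT1G71460 rose by 0.22, 0.21, 0.28 and 0.32, and each lost its call with library totals. Limma without trend and the fit without organelle-encoded genes also ended the calls of AT3G04760 and AT1G71460. For AT1G71460, leaving out wild type replicate 3 or any 1 of the 3 prp8a-14 libraries did the same.

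The chloroplast label did not hold for 3 of these genes. RefSeq notes name mitochondrial transcripts as the targets of OTP87 (AT1G74600), BIR6 (AT3G48250) and RPF3 (AT1G62930). None of the 3 was called, at changes of 0.11, -0.10 and 0.23. RPF3 stood at 6.12, 6.46 and 5.54 CPM in prp8a-14, against 4.95, 4.97 and 5.50 CPM in wild type, and, as it belongs to a group of closely related PPR genes, how reads shared between them were counted bears on its value and is not stated.

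Levels spread widely within the family. Per kilobase of the longest transcript, the mean level over the 6 libraries was highest for AT5G13770 (62.8 CPM per kilobase), SOT1 (50.1), PPR4 (42.4), PPR2 (27.7) and CRP1 (26.7), all of which rose. It was lowest for the editing factors OTP80 (0.730), CRR4 (0.836) and OTP82 (1.05), none of which was called. Of the 22 members with a mean of at least 20 CPM, 16 rose, where 26.2% of all listed genes at that level did. Among the 34 members under 20 CPM 7 rose, where 10.3% of such genes did. With library totals 12 of the first class and 3 of the second rose, and 1 of the second fell. On that scaling 10.7% of all listed genes rose and 29.6% fell. The split at 20 CPM was set after the values were seen. The SE of the change ran from 0.05 to 0.25 over the members, with the widest at the lowest levels, so a change of the median size was not detectable for the rarest editing factors at this depth.

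**Figure D3:**
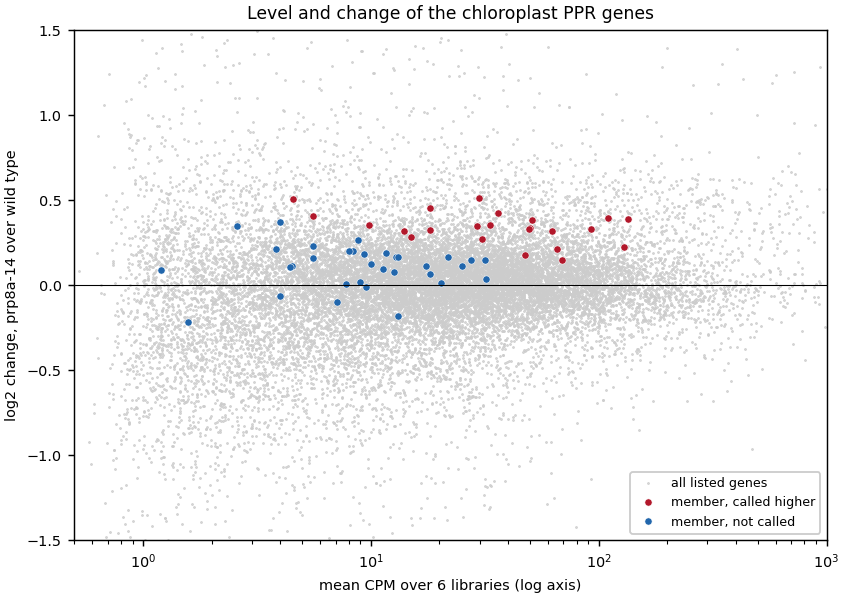
Mean CPM over the 6 libraries (log axis) against log2 change of prp8a-14 over wild type, for all listed genes in grey, members called higher in red and other members in blue. Genes beyond the axis limits are not drawn, and 22 members have a mean of at least 20 CPM, of which 16 are red.

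Many PPR genes have no intron, and PRP8A is a protein of the spliceosome. By the longest RefSeq transcript, 34 members have 1 exon and 22 have 2 or more. Of those with 1 exon 13 rose and 0 fell, with a median of 0.20, where 16% of all nuclear genes with 1 exon rose. Among those with 2 or more exons 10 rose and 0 fell, with a median of 0.18, where 17.8% of such nuclear genes rose. MRL1, with 19 exons, and PGR3, with 1, rose by 0.33 and 0.38. Of the 13 with 4 or more exons 8 rose and 0 fell, or 61.5%, with a median of 0.33, where 18.8% of such nuclear genes rose. These 13 also had more reads, at a median of 29.7 CPM beside 10.7 CPM for those with 1 exon. With library totals 7 with 1 exon, 8 with 2 or more and 6 with 4 or more rose, and 1 with 2 or more fell. On that scaling 10.7% of all listed genes rose and 29.6% fell. The class of 4 or more exons was not among the planned splits and was added after the values were seen. The differences between these classes were not tested. Gene totals do not show whether introns were retained.

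By their protein ends, 3 of the 14 members with the DYW pattern rose and 0 fell, or 21.4%, with a median of 0.18. Of the other 42, 20 rose and 0 fell, or 47.6%, with a median of 0.20. Over all listed genes 17.9% rose, which is near the share of the pattern members. Of all listed genes with a mean under 20 CPM 10.3% rose. The medians are close while the counts differ, and the pattern members had fewer reads, at a median of 9.23 CPM beside 21.1 CPM. With library totals 1 pattern member rose and 1 fell, where 10.7% of all listed genes rose and 29.6% fell. Without wild type replicate 3, 1 pattern member rose. The pattern was chosen after the values were seen. Of the 7 members that close with the full motif, CRR28 alone was called, and the other 6 had changes from 0.02 to 0.35.

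Several known chloroplast PPR genes fall outside the rule because their description lacks one of its words, and 9 of them were on the role lists. Of these 7 rose and 0 fell, with a median of 0.29, where 17.9% of all listed genes rose. PRORP1 (AT2G32230), the protein-only RNase P of both organelles, averaged 81.3 CPM ± 1.49 in prp8a-14 and 58.2 CPM ± 4.31 in wild type (SD, n = 3 each), and THA8 (AT3G27750), a splicing factor, rose by 0.52. EMB175, CRR22, YS1, HCF152 and LPE1 rose by 0.40, 0.31, 0.29, 0.19 and 0.17. CRR22, YS1, HCF152 and LPE1 lost their calls with library totals, which left 3 of the 9, where 10.7% of all listed genes rose. The fit without organelle-encoded genes ended the calls of CRR22, HCF152 and LPE1, and limma without trend those of HCF152 and LPE1. Leaving out prp8a-14 replicate 4 or wild type replicate 2 also ended the calls of CRR22, HCF152 and LPE1. So did leaving out wild type replicate 3 for CRR22 and HCF152, wild type replicate 1 for LPE1, prp8a-14 replicate 5 for YS1, HCF152 and LPE1, and prp8a-14 replicate 6 for CRR22. LPA66 (0.02) and EMB2654 (-0.01) were not called.

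Mitochondrial PPR genes, the nearest relatives, were set beside them. The comparison took 134 genes whose description holds the family name and the word mitochondrial, without chloroplastic. Of these 134 genes 6 rose and 2 fell, or 4.48% and 1.49%, with a median change of 0.03. Of all listed genes 17.9% rose and 17.3% fell, and of those with a mean under 20 CPM 10.3% rose. The mitochondrial PPR genes had fewer reads, at a median of 4.79 CPM beside 13.6 CPM for the chloroplast members. In prp8a-14 replicates 4, 5 and 6 the median mitochondrial gene stood 0.03, 0.03 and 0.06 above the wild type mean on the log2 scale. The difference between the families was not tested. With library totals 1 mitochondrial PPR gene rose and 10 fell, where 10.7% of all listed genes rose and 29.6% fell. Without wild type replicate 2, 2 mitochondrial PPR genes rose. In this family 0 fell without any 1 of the wild type libraries or without prp8a-14 replicate 4 or 5.

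**Figure D4:**
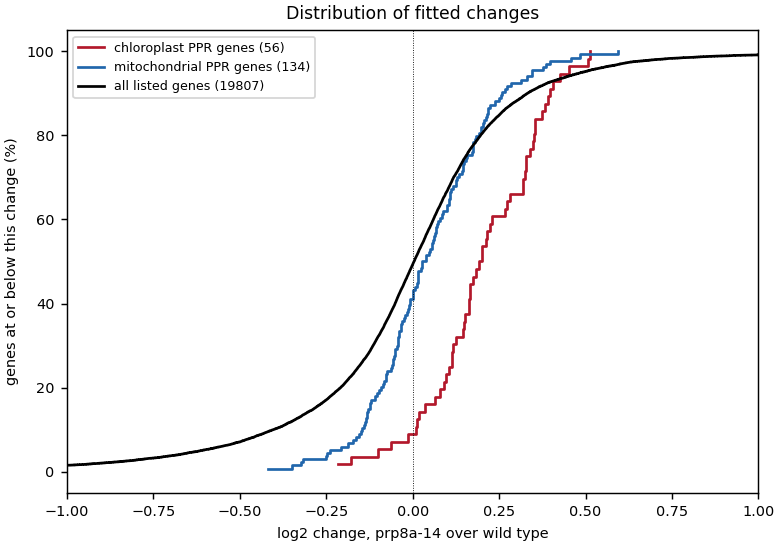
Cumulative share of genes (%) against log2 change of prp8a-14 over wild type, for the 56 chloroplast PPR genes (red), 134 mitochondrial PPR genes (blue) and all 19807 listed genes (black). The red curve crosses its middle at 0.20 and the blue curve at 0.03.

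Transcripts of proteins that work with PPR proteins on plastid RNA were higher too. Of 24 measured partners 22 rose and 0 fell, with a median of 0.39. Of all listed genes 17.9% rose, and of those with a mean of at least 20 CPM 26.2%. The partners had a median of 88.0 CPM. With library totals 21 partners rose, where 10.7% of all listed genes rose, and with quantile normalization 20 partners. Among 8 editing partners 7 rose: CP31A, an RNA-binding protein of plastid editing and stability, averaged 710.3 CPM ± 15.0 in prp8a-14 and 460.1 CPM ± 28.2 in wild type (SD, n = 3 each), and ORRM6 rose by 0.51. MORF8 and MORF9, which bind PPR editing factors directly, rose by 0.14 and 0.41. MORF8 lost its call with library totals, quantile normalization, limma without trend and the fit without organelle-encoded genes. The same held without wild type replicate 2 or prp8a-14 replicate 4. CP29A lost its call with quantile normalization, which left 5 of the 8 editing partners. Of 9 splicing partners 8 rose, led by CRS1 (0.46) and WTF1 (0.44), and APO1 had a change of 0.07 that did not pass. All 7 genes of nucleases and RNA-binding proteins rose, with those of the ribonucleases RNJ and RNE at 0.52 and 0.51.

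Plastid-encoded genes known as targets of the PPR proteins were higher as well, in libraries that hold plastid RNA only as far as poly-A selection kept it. Of 24 measured 22 rose and 0 fell, with a median of 0.92, where 17.9% of all listed genes rose. Transcripts of rps12, joined in maize with the help of PPR4, averaged 17.0 CPM ± 1.24 in prp8a-14 and 4.13 CPM ± 0.619 in wild type (SD, n = 3 each), and those of clpP1, edited with CLB19, 99.8 CPM ± 11.1 in prp8a-14 and 28.1 CPM ± 0.276 in wild type. The gene of PPR4 itself rose by 0.39, and that of CLB19 had a change of 0.22 that did not pass. The transcript rbcL, stabilised by MRL1, did not pass, with 90.5 CPM ± 28.1 in prp8a-14 and 67.6 CPM ± 36.5 in wild type (SD, n = 3 each), and neither did psbA. Both were called without wild type replicate 3, at changes of 0.92 for rbcL and 0.98 for psbA. That library held 109 CPM of rbcL and 65.8 CPM of psbA, beside 52.2 and 41.3 CPM of rbcL and 30.6 and 24.4 CPM of psbA in the other wild type libraries.

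Markers of green tissue and of roots moved as well, where 17.9% of all listed genes rose and 17.3% fell. All 25 nuclear photosynthesis genes rose, with a median of 0.59 and a summed level of 52955 to 58835 CPM in prp8a-14, against 37451 to 39302 CPM in wild type. LHCB6 (0.92) and LHCA4 (0.84) rose most, and with quantile normalization 22 of the 25 were called, with a median of 0.26. Of 14 root genes 1 rose (SCR, 0.25) and 10 fell, with a median of -0.51 and a summed level of 316 to 330.2 CPM in prp8a-14, against 365 to 386 CPM in wild type. CASP5, of the Casparian strip, fell by 1.22. Of 10 cell cycle genes 3 rose and 0 fell, among them CYCB2;2 (0.44) and CYCA1;1 (0.38), and their summed level was 282 to 316 CPM in prp8a-14, against 281 to 291 CPM in wild type. With library totals 3 of these rose and 1 fell, and their median went below 0, to -0.03. No marker measured was at 0. In whole seedlings fewer cells of a type and less RNA per cell cannot be told apart. The part of these shifts in the changes of the PPR genes was not tested.

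**Figure D5:**
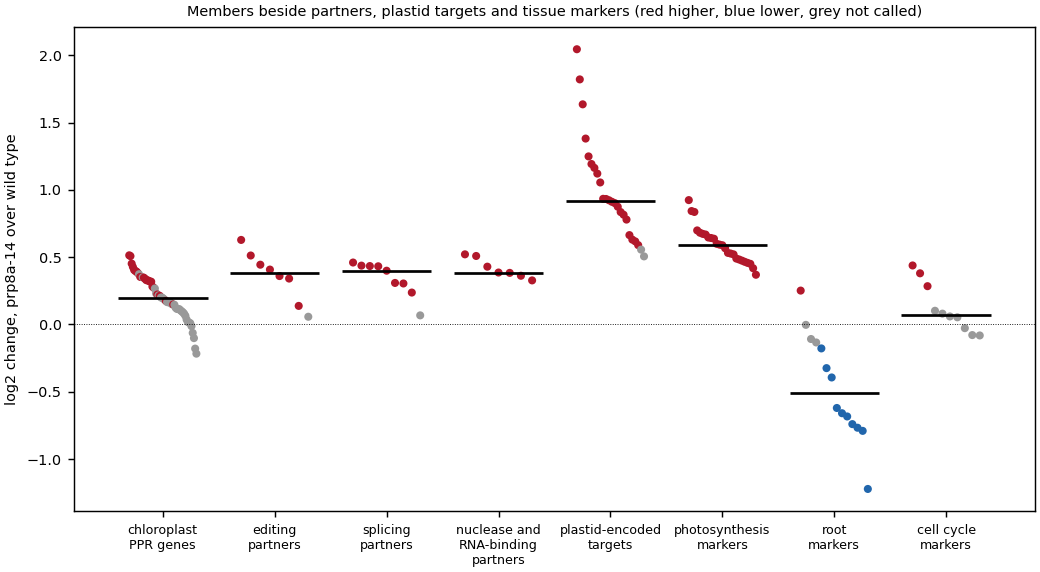
Log2 change of prp8a-14 over wild type for each gene of 8 groups, from the members on the left to cell cycle markers on the right, with the median as a black line, red for genes called higher, blue for lower and grey for not called. Medians are 0.20 for the members, 0.92 for plastid-encoded targets, 0.59 for photosynthesis markers and -0.51 for root markers.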

How the data were processed

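Poly-A selected RNA of 6 whole-seedling libraries was sequenced in pairs, per the labels' protocols. Named with no role or order in the submitters' processing notes are edgeR, limma, Salmon (0.8.2), featureCounts (1.4.6-p5) of Subread, STAR (2.5.1a) and bcl2fastq. No genome build, annotation or strand setting is given in the sources used here. Per the file headers, the deposited values are log2 expression and, from the authors' comparison, a log2 change, a p-value, an adjusted p-value and a t-like score. The log2 values equal log2 CPM with 0.5 counts added, over a library size that the authors scaled: at a tolerance of 0.1, whole counts came out for 100% of the values. Repeated lines (272 of 20079, with equal values) were dropped. Left out were 3 per-sample columns with no match among the labels. Whether the authors' fit and scaled sizes used them is not stated, and both the authors' calls and the changes computed here from the scaled values may depend on them.

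All genes and the 6 libraries were fitted with limma 3.58.1 (intensity trend, R 4.3.3) on the deposited log2 values. Its two-sided p-values got the Benjamini-Hochberg correction (BH) over all 19807 genes. The fit was tested on simulated data for this comparison: of 50 changed genes at each size among 19807, 84% were recovered at 1.25-fold and 100% at 1.5-fold, and 10 of 202 calls were of unchanged genes, at 1 dispersion for every gene. Exon numbers, transcript lengths and coding ends came from the RefSeq annotation of TAIR10.1, matched by gene ID for all 56 members. Tables and figures were made with Python 3.11.15, pandas 2.3.3 and matplotlib 3.10.9.

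The members, the role, partner, target and marker lists and the tests were chosen with earlier results of these data known. The genes named were the members on the 4 role lists, the 10 largest rises and falls past the threshold, the 5 highest and 3 lowest levels per kilobase, the smallest p, and up to 2 rises and 2 falls from every other list, of which 1 is not reported here. Any other gene was chosen after its values were seen. The alternatives were quantile normalization, library totals, limma without trend, a filter at a mean of 5 CPM, a pseudocount of 1 CPM, voom on the recovered counts, the fit without organelle-encoded genes (with nuclear totals), and each library left out.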

Additional observations from a re-analysis of the deposited data

How the results depend on the processing

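Of the 23 called members, 14 kept the call in every alternative that kept the gene (the filter at 5 CPM drops CRR28, one of the 14), and 18 whenever 1 library was left out. With a library left out the number called higher ran from 18 (without wild type replicate 3) to 24 (without wild type replicate 1), none was called lower, the median change ran from 0.18 to 0.21 and the log2 ratio of summed levels from 0.25 to 0.29, against 0.26 with all libraries. Library totals gave 15 higher and 1 lower, a median of 0.10 and a summed log2 ratio of 0.17. The fit without organelle-encoded genes gave 19 higher, 1 lower, a median of 0.11 and a summed log2 ratio of 0.18. Both replace the authors' scaled sizes, which lowers every change. Limma without trend gave 18 higher, quantile normalization 24, and voom, the pseudocount of 1 CPM and the filter at 5 CPM 23 each, the last with OTP51 called and CRR28 dropped. Signs turned only for uncalled genes. With library totals they were OTP80 (-0.0059), PDM1 (-0.016), CRR2 (-0.031), AT5G02830 (-0.059), EMB2261 (-0.077), AT3G26630 (-0.082) and AT4G14190 (-0.086), and without organelle-encoded genes PDM1 (-0.0026), CRR2 (-0.018), AT5G02830 (-0.046), EMB2261 (-0.063), AT3G26630 (-0.068) and AT4G14190 (-0.072). With quantile normalization they were QED1 (0.023) and AT5G52850 (0.013). With a library left out OTP80 ran from -0.12 to 0.23, AT5G02830 from -0.012 to 0.089, EMB2261 from -0.063 to 0.085, AT3G26630 from -0.023 to 0.063, AT4G14190 from -0.056 to 0.10, QED1 from -0.19 to 0.096 and AT5G52850 from -0.22 to 0.088. No paired analysis was possible because the groups share no replicate number.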

Other observations

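Another 223 listed genes have the PPR family name in their description with neither the word mitochondrial nor chloroplastic. Chloroplast PPR genes that fall outside the rule may be among them. Of the 223, 24 were higher and 2 lower in prp8a-14 (limma with BH), or 10.8% and 0.897%, with a median log2 change of 0.05. Of all listed genes 17.9% were higher and 17.3% lower. Their summed level was 2018, 2029 and 1994 CPM in prp8a-14, against 1880.3, 1809 and 1820.3 CPM in wild type. With library totals 12 were higher and 7 lower, and the median was -0.05. On that scaling 10.7% of all listed genes were higher and 29.6% lower.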
